A study of Mus musculus with 24 samples.

Results

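The data described here are the read counts of 38 cell cycle and proliferation genes in the ileum, the last stretch of the small intestine, of 24 mice. The genes were chosen by symbol as a set of S, G2 and M phase genes, 16 of S phase and 22 of G2 and M phase, with earlier results of these data known. All 38 were found among the 55536 genes of the count table, and all 38 passed the filter on low counts that left 14076 genes to test. The animals were C57BL/6N mice, an inbred laboratory strain, that entered the study at an age of 4 to 5 weeks and were fed for 30 weeks in total. The control diet (CD) held 10 kcal% fat and the high-fat diet (HFD) 60 kcal% fat. After 20 weeks, metformin, an oral antidiabetic drug, was added to the drinking water of the CDmetf and HFDmetf groups at 50 mg/kg body mass/day for the last 10 weeks. Each group held 6 animals, 3 males (M1 to M3) and 3 females (F1 to F3). By the methods of the study mice were housed in groups of 3, and a single animal from each cage was sequenced. No group carried a transgene or a deleted gene.

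A dividing cell copies its DNA in S phase and separates the copies in mitosis, after the G2 gap. The MCM proteins form the helicase that opens DNA for copying, cyclins and Cdk1 drive the steps of the cycle, and the anaphase promoting complex ends mitosis by marking cyclins for destruction. In the small intestine the crypts, which hold *Lgr5*-positive stem cells and their transit-amplifying daughters, are the main site of epithelial division, while enterocytes on the villi have left the cycle. Germinal centres, where B cells divide rapidly inside Peyer's patches and other follicles, are another source of dividing cells in a piece of ileum. Whether the 38 genes followed crypt genes or germinal centre genes from library to library was therefore the main comparison.

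The depth, as the sum of gene counts, was 1829690 to 40606442 per library (median 3467307.5), and 3 reads, taken as the floor, were worth 0.0705 CPM in the deepest library and 1.71 CPM in HFDmetf F2. Such floors cover counting error only. Levels are given as CPM, read counts scaled to a common library size after TMM normalization. The share of reads held by the 10 most abundant genes was 85.4% in CD M3 and 36.6% in HFDmetf F2, against 9.2% to 19% elsewhere, and these 2 libraries were kept. The library labelled HFD M2 had 3355 *Xist* reads and 0 on 4 Y-linked genes, whereas the library labelled HFD F2 had 1 *Xist* read and 423 Y-linked reads, so that both went against their sex labels. *Fabp6*, a marker of ileal enterocytes, ranged from 0.817 CPM in HFD M3 to 2662 CPM in CDmetf F2. The stem cell markers *Lgr5* (20.0 to 49.7 CPM) and *Olfm4* (264.8 to 1097 CPM) were present in every library.

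The genes of the cycle are known to share short promoter elements: CCAAT boxes and the cell cycle homology region TTTGAA in genes of G2 and M phase, and E2F sites in genes of S phase. Of the 38 genes, 31 had an entry in the RefSeq promoter table (GRCm38.p6), and the 250 bases before the start were searched on both strands. The sequences shown are the last 120 bases before the start of *Top2a*, *Cdk1* and *Cdc20* of the G2 and M genes and of *Mcm6* and *Mcm3* of the S genes, 5′ to 3′ on the strand of the gene. They were chosen after the matches were counted, as examples with several matches each, and capitals mark every match to a searched motif. They lie at chr11:99024190-99024309, chr10:69352913-69353032, chr4:118437344-118437463, chr1:128359706-128359825 and chr1:20820313-20820432, all on the minus strand.
Top2a: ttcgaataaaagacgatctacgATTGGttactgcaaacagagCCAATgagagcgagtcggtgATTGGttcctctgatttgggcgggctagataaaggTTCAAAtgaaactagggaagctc
Cdk1: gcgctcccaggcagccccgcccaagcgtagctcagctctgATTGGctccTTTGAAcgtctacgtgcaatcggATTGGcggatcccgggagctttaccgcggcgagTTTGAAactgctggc
Cdc20: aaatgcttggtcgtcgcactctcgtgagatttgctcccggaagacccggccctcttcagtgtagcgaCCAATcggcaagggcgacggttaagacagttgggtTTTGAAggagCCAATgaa
Mcm6: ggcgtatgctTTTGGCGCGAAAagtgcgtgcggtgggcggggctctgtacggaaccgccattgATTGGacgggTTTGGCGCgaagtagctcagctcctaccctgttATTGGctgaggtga
Mcm3: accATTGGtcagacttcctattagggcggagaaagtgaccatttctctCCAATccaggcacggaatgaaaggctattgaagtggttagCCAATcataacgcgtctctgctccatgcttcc

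CCAAT, read on either strand, stood in the 250 bases of 23 of the 31 genes, 15 of 17 in G2 and M phase and 8 of 14 in S phase, beside 33.8% of all 32851 promoter entries. TTTGAA, again on either strand, stood in 8 of the 31 genes, beside 16% of all entries, and 7 of these 8 were G2 and M genes (*Ccnb2*, *Cdc20*, *Cdk1*, *Kif11*, *Mki67*, *Top2a* and *Ube2c*), *Mcm2* being the other. All 8 also held CCAAT, a combination found in 5.55% of all entries. An E2F motif, spelled TTTCCCGC, TTTCGCGC, TTTGCCGC or TTTGGCGC, stood in 5 of the 31 genes, namely *Cdc6*, *Mcm5*, *Mcm6*, *Mcm7* and *Cdk1*, beside 1.86% of all entries. In *Mcm6* and in *Mcm5* a pair of E2F matches overlapped on opposite strands. These matches describe letters in the window and not bound sites.

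*Mki67* (ENSMUSG00000031004, GRCm38 chr7:135689784-135716361, minus strand) encodes Ki-67, which coats mitotic chromosomes and marks cells in cycle. It had the highest level of the 38 genes per length, with a median of 22.1 CPM per kb of exon, and at least 370 reads in every library. Its level ranged from 120.2 to 459.3 CPM in the CD group (median 214.2 CPM), from 180.9 to 331.6 CPM in the CDmetf group (median 232.3 CPM), from 152.6 to 254.8 CPM in the HFD group (median 207.1 CPM) and from 163.8 to 347.6 CPM in the HFDmetf group (median 275.0 CPM). The groups overlapped throughout, and both the lowest and the highest library, CD M1 and CD M3, belonged to the CD group. *Top2a* (ENSMUSG00000020914, chr11:98992943-99024189, minus strand) encodes topoisomerase II alpha, which untangles the copied DNA. It ranged from 60.2 to 188.8 CPM in the CD group (median 120.4 CPM), from 83.1 to 166.5 CPM in the CDmetf group (median 156.6 CPM), from 82.3 to 191.2 CPM in the HFD group (median 100.4 CPM) and from 81.9 to 189.4 CPM in the HFDmetf group (median 163.7 CPM). *Pcna* (ENSMUSG00000027342, chr2:132249162-132253314, minus strand), the sliding clamp of the replication fork, ranged from 33.9 to 53.4 CPM in the CD group (median 37.6 CPM), from 30.1 to 55.6 CPM in the CDmetf group (median 49.1 CPM), from 29.8 to 68.6 CPM in the HFD group (median 40.2 CPM) and from 34.1 to 67.8 CPM in the HFDmetf group (median 49.7 CPM). For all 3 genes the spread within a group was wider than the distance between the group medians.

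Per length, *Pcna* (17.6 CPM per kb), *Top2a* (16.1 CPM per kb) and the mitotic kinase gene *Plk1* (15.4 CPM per kb) followed *Mki67*, and then cyclin genes *Ccna2* (12.7 CPM per kb) and *Ccnb2* (12.2 CPM per kb). The lowest were *Cdc6*, which loads the MCM helicase (1.27 CPM per kb), the S phase cyclin gene *Ccne1* (1.48 CPM per kb) and the transcription factor gene *E2f1* (1.62 CPM per kb). The smallest count of any member was 2 reads of *Ccne1* in HFD M3, under the floor of 3 reads. Between the lowest and the highest of the 24 libraries the members differed by 2.30-fold to 10.4-fold (median 3.20-fold). Their SD over libraries on the log2 scale had a median of 0.44, beside 0.41 for all genes tested.

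To place each library, the 38 genes were combined into a cell cycle score, the mean of their z-scores of log2 CPM over the 24 libraries. The score was −0.20 ± 0.80 in the CD group, 0.08 ± 0.54 in the CDmetf group, −0.33 ± 0.77 in the HFD group and 0.44 ± 0.76 in the HFDmetf group (mean ± SD, n = 6 each). The CD libraries ran from −1.43 (M1) to 0.86 (M3) with a median of −0.13, the CDmetf libraries from −0.60 (M1) to 0.84 (M2) with a median of −0.04, the HFD libraries from −1.59 (M3) to 0.66 (F3) with a median of −0.25, and the HFDmetf libraries from −0.90 (M3) to 1.10 (F2) with a median of 0.62. The 4 groups overlapped. With 1 library left out at a time, the mean moved between −0.37 (without M3) and −0.01 (without M1) in CD, between −0.03 (without M2) and 0.19 (without M1) in CDmetf, between −0.50 (without F3) and −0.15 (without M3) in HFD and between 0.36 (without F2) and 0.68 (without M3) in HFDmetf. The means of the HFDmetf and HFD groups, which stood furthest apart, differed by about the SD within a group. In libraries of the same sex label and replicate number, which were not shown to be paired, the score was higher in HFDmetf than in HFD in 5 of 6 pairs, in CDmetf than in CD and in HFDmetf than in CDmetf in 4 of 6, and in HFD than in CD in 3 of 6. The pairs with HFD M2 and HFD F2 are of 1 sex by label only. In bulk tissue, fewer dividing cells and less of these transcripts per dividing cell cannot be told apart. Without CD M3 and HFDmetf F2 the group means of the score were −0.33 in the CD group and 0.41 in the HFDmetf group, and without both HFD libraries that went against their sex labels the HFD mean was −0.48.

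**Figure D1:**
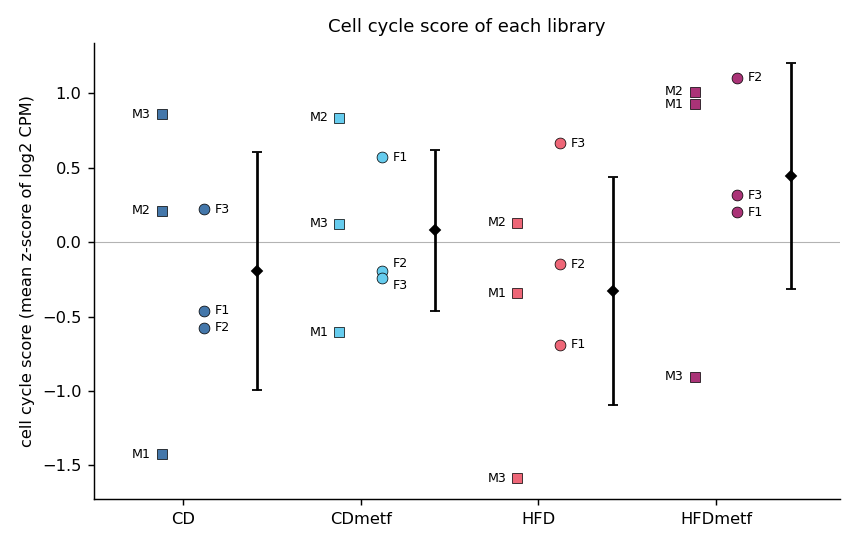
Cell cycle score (mean z-score of log2 CPM over 38 genes, vertical axis) of each of the 24 libraries by group. Squares are males, circles females, by their labels, and diamonds with bars give the mean ± SD (n = 6); the groups overlap, from −1.59 in HFD M3 to 1.10 in HFDmetf F2.

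The members varied together across libraries. Pearson's r between pairs of members had a median of 0.597 over 703 pairs, of which 665 were above 0. It was 0.670 within the G2 and M genes (231 of 231 pairs above 0), 0.562 within the S genes (106 of 120 pairs) and 0.547 between an S and a G2 or M gene (328 of 352 pairs). These values describe libraries that also share depth and tissue composition. The S phase score and the G2 and M phase score differed most in CD M3, at 0.24 and 1.31, and in HFD M1, at −1.06 and 0.18. CD M3 was the highest library for *Mki67*, *Kif23*, *Cenpe*, *Cenpf*, *Nusap1*, *Ube2c*, *Plk1*, *Bub1b*, *Birc5* and *Foxm1*, all of them genes of G2 and M phase.

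**Figure D2:**
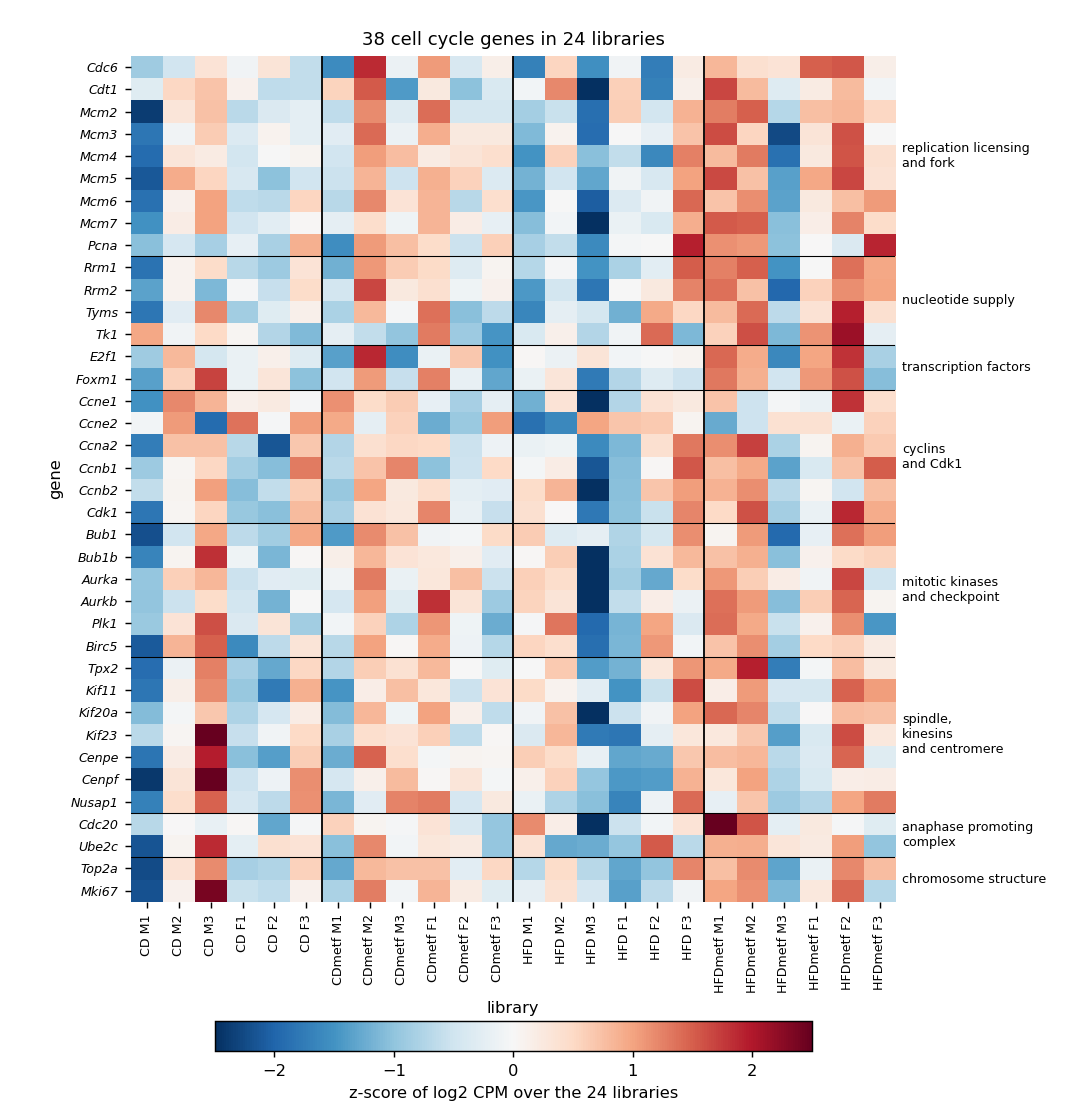
z-score of log2 CPM (colour, from blue, low, to red, high) of the 38 genes (rows, by role) in the 24 libraries (columns, by group). Columns tend to hold one colour, CD M1 and HFD M3 mostly blue and HFDmetf F2, M2 and M1 mostly red, and *Ccne2* runs against the other genes.

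The cell cycle score followed the crypt score, built in the same way from 17 crypt and stem cell genes (among them *Lgr5*, *Ascl2*, *Olfm4*, *Smoc2* and *Sox9*), none of which is a member. Across the 24 libraries r was 0.851 and Spearman's rho 0.817. After removing group, sex and replicate number r was 0.864, and without the 2 libraries furthest from the median crypt score, HFD F1 and CD M1, it was 0.824. It was 0.875, 0.635 and 0.901 within replicate numbers 1, 2 and 3 (n = 8 each), 0.920 in libraries labelled male and 0.729 in those labelled female (n = 12 each). Within the groups it was 0.902 in CD, 0.514 in CDmetf, 0.831 in HFD and 0.991 in HFDmetf (n = 6 each). With 1 library left out at a time r stayed between 0.829 and 0.886, and without both CD M3 and HFDmetf F2 it was 0.824. The 3 libraries with the highest cell cycle score, HFDmetf F2, M2 and M1, had crypt scores of 0.87, 0.90 and 0.87, and the 2 with the lowest, HFD M3 and CD M1, had crypt scores of −0.97 and −1.08. All points share the library and its composition, and r is given as a description of them. The gene lists behind the scores were chosen with earlier results of these data known.

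The germinal centre list could be measured less well. Of its 9 genes, only *Bcl6*, *S1pr2*, *Rgs13* and *Mybl1* passed the filter. The summed level of the 9 genes was 26.9 to 42.5 CPM in CD, 30.1 to 42.4 CPM in CDmetf, 36.8 to 89.1 CPM in HFD and 29.7 to 47.8 CPM in HFDmetf, against 981.3 to 2295 CPM for the crypt list over all libraries. The highest sum, in HFD M3, held 61.3 CPM of *Rgs13*, and this library had the lowest cell cycle score. Against the score of the 4 genes, r of the cell cycle score was −0.054 (rho 0.194), and without CDmetf F1 and HFD M3, the 2 furthest libraries, it was 0.309. Within replicate numbers 1, 2 and 3 it was −0.314, 0.686 and −0.363 (n = 8 each), so that no common direction was seen. Without CD M3 and HFDmetf F2 it was −0.228. With the log2 summed CPM of all 9 genes in place of the score r was −0.354, and 0.009 without HFD M3 and CD M2, and with a score of 10 B cell genes (among them *Ms4a1*, *Cd79a* and *Pax5*) it was −0.212. The last 2 measures were added after seeing the data.

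Scores of some other tissue parts moved with the cell cycle score as well, and others did so little. Against 9 villus enterocyte genes (among them *Sis*, *Alpi* and *Anpep*) r was −0.670 (rho −0.611), and −0.593 without HFDmetf F2 and HFDmetf M1. These 2 libraries, at villus scores of −2.33 and −2.17, were among the 3 with the highest cell cycle score. The summed level of the villus list ranged from 8287 to 30440 CPM in CD, from 12440 to 22840 CPM in CDmetf, from 14420 to 25890 CPM in HFD and from 4773 to 26390 CPM in HFDmetf. Against 7 smooth muscle genes that passed the filter r was 0.614 over all libraries, 0.916 in those labelled male and 0.079 in those labelled female. Against 8 Paneth cell genes r was 0.401. It was 0.056 against the epithelium list, −0.068 against pancreas acinar genes, 0.221 against adipocyte genes and 0.223 against erythroid genes. For T cell and plasma cell genes it was −0.206 and −0.412. *Fabp6* was lowest in HFD M3, which also had the lowest cell cycle score, but its 0.817 CPM there lay under that library's floor of 1.23 CPM. The score of 4 ileum genes, *Fabp6* among them, had an r of 0.109 with the cell cycle score. Without HFD M3 and CD M2 that r was −0.219. The part of tissue composition in the group values was examined only through fits with a score as a covariate. With the germinal centre score as that covariate the members' median logFC was 0.31 in HFDmetf vs. HFD, 0.22 in HFDmetf vs. CDmetf, 0.11 in CDmetf vs. CD, 0.01 in HFD vs. CD, 0.19 in the interaction and −0.0034 between the sexes. The values with the crypt score stand with each contrast.

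**Figure D3:**
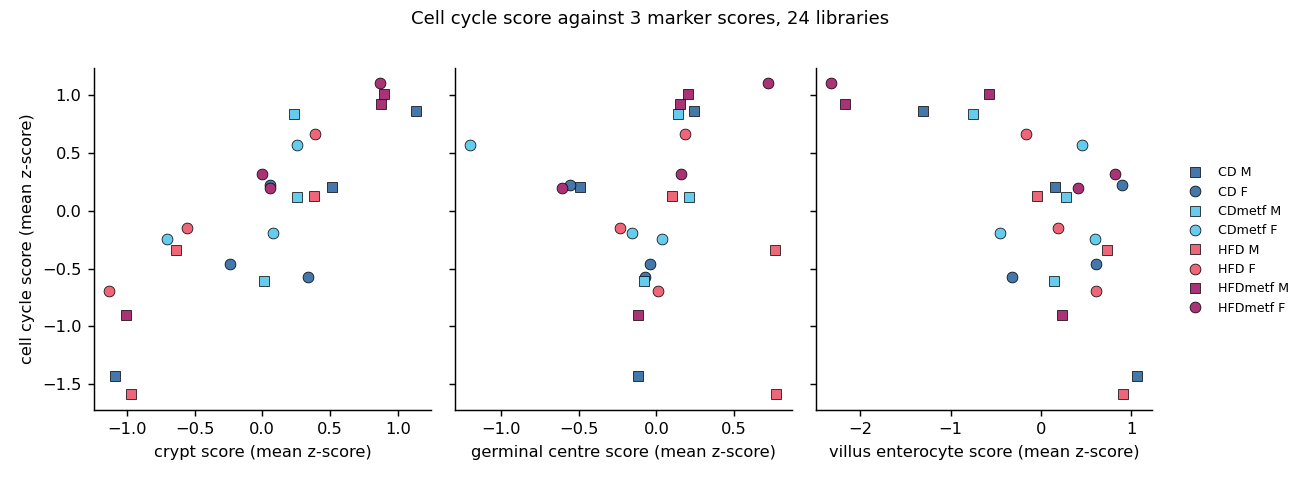
Cell cycle score (vertical axis) against the crypt, germinal centre and villus enterocyte scores (horizontal axes, all mean z-scores) in 24 libraries, coloured by group, squares male and circles female by label. The points lie along a rising band on the crypt axis (r 0.851) and along a falling band on the villus axis (r −0.670). They follow no common direction on the germinal centre axis (r −0.054), a score of only 4 genes.

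Taken gene by gene, r with the crypt score was above r with the germinal centre score in 37 of the 38 members. The share of all genes for which this holds is not given here, so the count alone is not read as particular to the members. Their r with the crypt score had a median of 0.687, against 0.060 for all genes tested, and it was above 0.5 in 33 members, against 18.3% of all genes. Their r with the germinal centre score had a median of −0.072, against −0.008 for all genes, and was above 0.5 in 0 members, against 1.01% of all genes. The germinal centre score rests on 4 genes, against 17 for the crypt score. A low r with it therefore cannot show that a gene does not follow germinal centres. The highest r with the crypt score were those of *Mki67* (0.824), *Mcm7* (0.815) and *Kif23*, a kinesin of the dividing cell's midbody (0.813). The highest r with the germinal centre score were those of *Cenpe*, a kinesin of the kinetochore (0.318), *Bub1*, a kinase of the spindle checkpoint (0.315), and the spindle motor gene *Kif11* (0.251), each below its r with the crypt score (0.672, 0.566 and 0.552). *Pcna* (0.342) and *Tk1*, which salvages thymidine (0.321), followed the crypt score least among the genes above 0. *Ccne2*, encoding cyclin E2 of the G1 to S step, was the exception, at −0.421 with the crypt score and −0.400 with the cell cycle score. It ranged from 6.85 CPM in CD M3 to 19.2 CPM in CD F1. In the annotation its exons overlap those of *Ints8* on the opposite strand by 609 of 3495 bases, and the strand used for counting is not given in the sources used here.

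**Figure D4:**
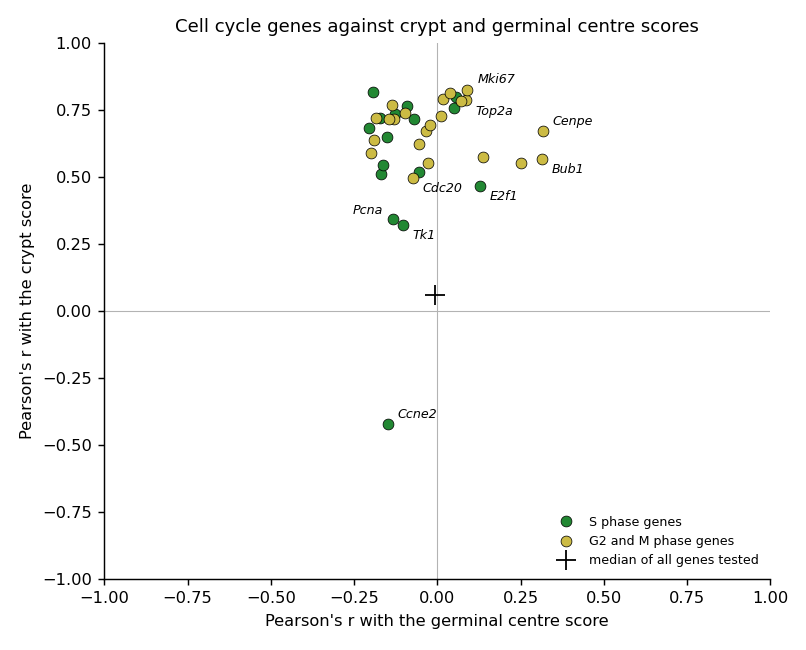
Pearson's r of each of the 38 genes with the germinal centre score (horizontal axis) and with the crypt score (vertical axis) over 24 libraries, S phase genes in green and G2 and M phase genes in yellow, the cross being the median of all genes tested. The genes gather high on the crypt axis (median 0.687) and around 0 on the germinal centre axis (median −0.072), with *Ccne2* alone below 0 on the crypt axis. The germinal centre score rests on only 4 genes.

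Outside the lists of members and other cell cycle genes, the 10 genes whose log2 CPM was most like the cell cycle score over the 24 libraries had r from 0.894 to 0.919. They were the histone methyltransferase gene *Suv39h1* (0.919), *Dtl*, which encodes a substrate receptor for the destruction of Cdt1 (0.918), the linker histone gene *Hist1h1b* (0.917), the nuclear pore gene *Ndc1* (0.913), the translation factor gene *Eif3b* (0.909), the lamin gene *Lmnb1* (0.905), the arginine methyltransferase gene *Prmt5* (0.904), the lamin B receptor gene *Lbr* (0.899), and *Shmt1* and *Atic* of folate and purine metabolism (both 0.894). Among the 100 genes nearest to the score, 16 were members, 15 were other cell cycle genes and 1 was a crypt gene. The members' own place there follows in part from their share in the score.

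In animals on the high-fat diet, most of the 38 genes had higher fitted levels with metformin (HFDmetf vs. HFD), but none passed the test. In this contrast 0 of the 38 members reached an FDR under 0.05 in edgeR's quasi-likelihood test, as did 0% of all genes tested, and limma-voom and DESeq2 called 0 members as well. A positive log2 fold change (logFC), higher with metformin, was found in 37 of 38 members, against 53.9% of all genes, and the members' median logFC was 0.34, against 0.03 for all genes. An unadjusted p under 0.05 was reached by 3 members, all higher, where 6.61% of all genes passed in either direction and 3.79% as higher. With limma-voom 6 members did so, against 8.1% of all genes. The 3 members in edgeR were *Cdc6* (logFC = 0.64; SE = 0.253; FDR = 0.640), the helicase subunit gene *Mcm7* (logFC = 0.46; SE = 0.204; FDR = 0.640) and *Foxm1*, a transcription factor of G2 and M genes (logFC = 0.48; SE = 0.225; FDR = 0.640). *Cdc6* (chr11:98907801-98923940, plus strand) ranged from 3.43 to 7.57 CPM in the HFD group (median 4.89 CPM) and from 6.61 to 10.8 CPM in the HFDmetf group (median 7.83 CPM). The libraries HFD M2 and HFD F3 lay within the HFDmetf range and the other HFD libraries below it. *Mcm7* ranged from 15.1 to 44.1 CPM in the HFD group (median 31.8 CPM) and from 25.7 to 52.5 CPM in the HFDmetf group (median 43.6 CPM). *Foxm1* ranged from 11.0 to 20.7 CPM in the HFD group (median 16.6 CPM) and from 13.7 to 30.7 CPM in the HFDmetf group (median 25.6 CPM). No member had 2 groups that did not overlap, in this contrast (0.0355% of all genes) or in HFD vs. CD (0.0853%), HFDmetf vs. CDmetf (0.142%) and CDmetf vs. CD (0.149%).

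By role, all 9 genes of replication licensing and the fork were higher in HFDmetf than in HFD by their fitted values, with logFC from 0.20 to 0.64 (median 0.41). The same was true of all 4 genes of nucleotide supply (0.28 to 0.47; median 0.43), the 6 mitotic kinase and checkpoint genes (0.17 to 0.44; median 0.21), the 7 spindle, kinesin and centromere genes (0.17 to 0.36; median 0.21), both anaphase promoting complex genes (0.30 and 0.37) and *Mki67* and *Top2a* (0.35 and 0.38). Among the cyclins and Cdk1, 5 of 6 had a positive logFC (median 0.35), and *Ccne2* was at −0.01. The median SE of a member was 0.229, so that single genes of these groups mostly lay within 2 SE of 0. The S genes had a median logFC of 0.41 and the G2 and M genes of 0.27. With the crypt score as a covariate, the members' median logFC was 0.01, against −0.0084 for all genes. In that fit 0 members had an unadjusted p under 0.05, against 1.58% of all genes. Without HFD M3 the median was 0.19, and without HFDmetf M1 0.22. The number of members at an unadjusted p under 0.05 moved with single libraries. It was 17 without HFD F3 (against 16.2% of all genes), 15 without HFDmetf M3 (against 14.5%), and 5 without HFDmetf F3 (against 10.3%) or CD M3 (against 8.98%). It was 1 without HFD M3, HFDmetf M1, M2, F1 or F2, and 0 without HFD M1. The share of all genes in these last fits is not given here, so a drop particular to the members cannot be told from a general one.

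**Figure D5:**
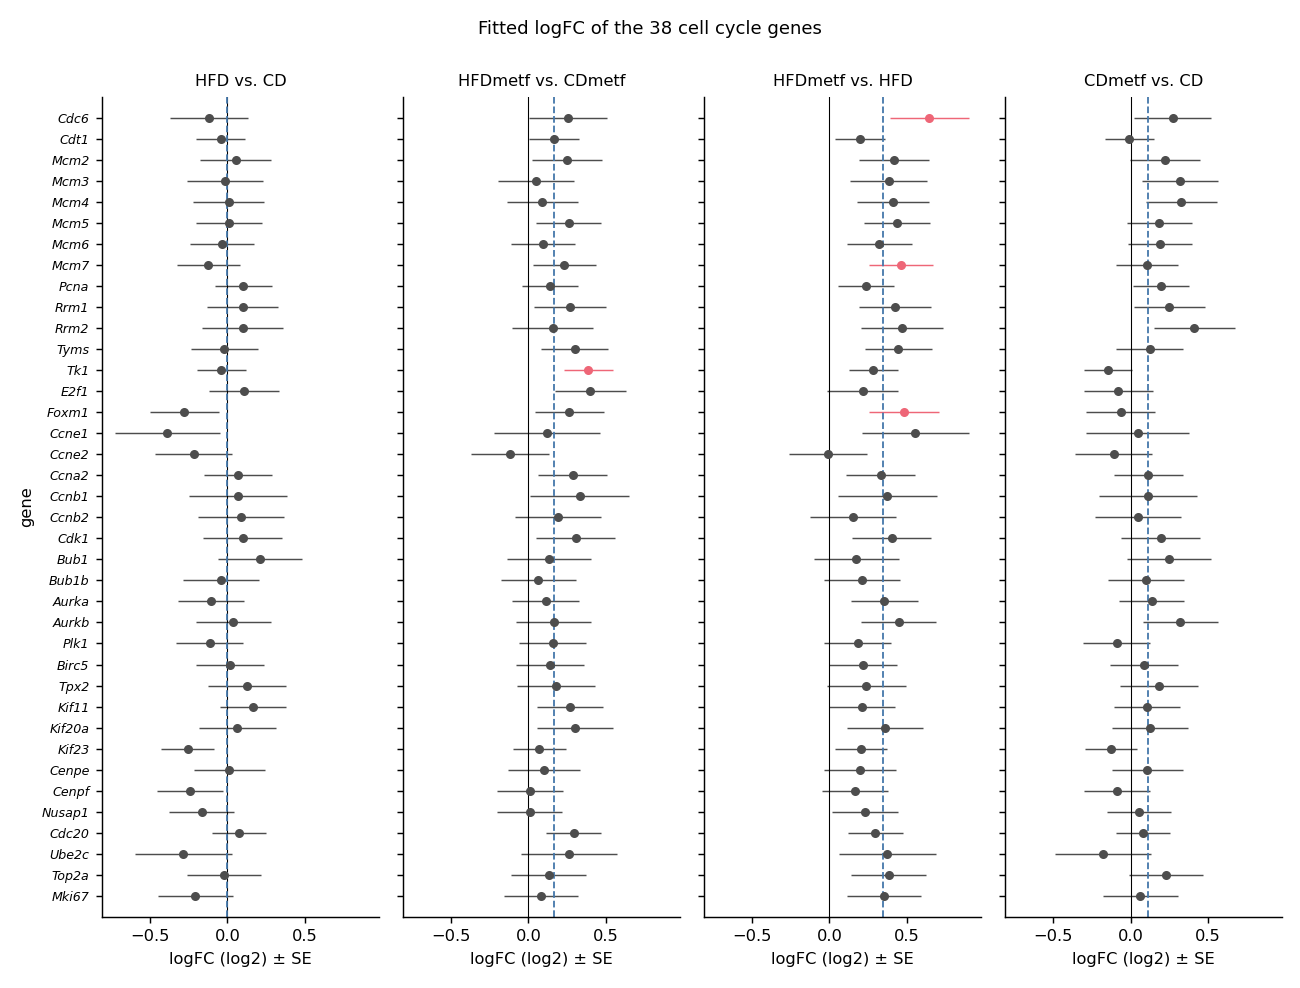
Fitted logFC (log2, horizontal axis) with its SE (bars) for each of the 38 genes (rows, by role) in the 4 contrasts, with the members' median as a dashed line. Genes at an unadjusted p under 0.05 are in red (*Tk1* in HFDmetf vs. CDmetf; *Cdc6*, *Mcm7* and *Foxm1* in HFDmetf vs. HFD), and no gene reached an FDR under 0.05.

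On the control diet (CDmetf vs. CD), 0 of the 38 members reached an FDR under 0.05, as did 0% of all genes, and 0 members had an unadjusted p under 0.05, against 5.14% of all genes. The logFC was positive in 29 members, against 49.6% of all genes, with a median of 0.11, against −0.0023 for all genes. The smallest p belonged to *Rrm2*, the small subunit of ribonucleotide reductase (logFC = 0.41; SE = 0.261; FDR = 0.940), the helicase subunit gene *Mcm4* (logFC = 0.33; SE = 0.228; FDR = 0.951) and *Aurkb*, the kinase of the chromosomal passenger complex (logFC = 0.32; SE = 0.242; FDR = 0.954). *Rrm2* ranged from 7.80 to 15.3 CPM in the CD group and from 10.9 to 24.1 CPM in the CDmetf group, the last in CDmetf M2. *Mcm4* ranged from 14.3 to 30.04 CPM and from 23.1 to 38.5 CPM, and *Aurkb* from 9.39 to 16.5 CPM and from 10.3 to 26.5 CPM, in the CD and CDmetf groups. For each of these genes the groups overlapped. The median logFC of the members was 0.25 without CD M3, 0.03 without CD M1 or CDmetf F1, 0.02 without CD F2 and 0.07 without CDmetf M2, and 0.18 with the crypt score as a covariate. In that fit 32 members were above 0 and 5 had an unadjusted p under 0.05, against 8.38% of all genes.

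The diet contrast without metformin (HFD vs. CD) showed no common direction. Of the 38 members, 0 reached an FDR under 0.05, as did 0% of all genes, and 0 had an unadjusted p under 0.05, against 4.63% of all genes. A positive logFC was found in 19 members, against 48.8% of all genes, and the median logFC was −0.0039, against −0.0047 for all genes. The smallest p belonged to *Kif23* (logFC = −0.26; SE = 0.169; FDR = 0.9997), *Foxm1* (logFC = −0.28; SE = 0.224; FDR = 0.9997) and *Ccne1* (logFC = −0.39; SE = 0.339; FDR = 0.9997). *Kif23* ranged from 31.2 to 63.6 CPM in the CD group, the highest value being that of CD M3, and from 24.7 to 42.5 CPM in the HFD group. *Foxm1* ranged from 12.5 to 31.7 CPM in the CD group, again with CD M3 highest, and its logFC was 0.01 without that library. *Ccne1* ranged from 1.75 to 6.38 CPM in the CD group and from 0.817 to 4.28 CPM in the HFD group. The members' median stood at −0.17 without HFD F3, −0.10 without CD M1, 0.08 without HFD M3 and 0.11 without CD M3. It was 0.23 with the crypt score as a covariate, with 35 members above 0 and 5 at an unadjusted p under 0.05, against 4.89% of all genes.

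With metformin on both diets (HFDmetf vs. CDmetf), 0 of the 38 members reached an FDR under 0.05, as did 0% of all genes. A positive logFC was found in 37 members, against 55.2% of all genes, with a median of 0.16, against 0.03 for all genes. Only *Tk1* (chr11:117815526-117826092, minus strand) had an unadjusted p under 0.05 (logFC = 0.39; SE = 0.157; FDR = 0.599), 1 of 38 members, where 7.87% of all genes passed in either direction and 3.83% as higher. Without CDmetf F1 and HFDmetf M3, 2 and 3 members did so, against 9.05% and 10.5% of all genes. No member did so without CDmetf F2, HFDmetf M2 or HFDmetf F2, fits for which the share of all genes is not given here. *Tk1* ranged from 17.5 to 33.3 CPM in the CDmetf group (median 20.7 CPM) and from 19.04 to 40.4 CPM in the HFDmetf group (median 30.1 CPM). Its logFC was 0.35 with the crypt score as a covariate. *E2f1* (logFC = 0.40; SE = 0.227; FDR = 0.661) and *Cdc20*, an activator of the anaphase promoting complex (logFC = 0.29; SE = 0.175; FDR = 0.675), came next. *E2f1* ranged from 3.17 to 9.32 CPM in the CDmetf group and from 3.10 to 9.10 CPM in the HFDmetf group, and *Cdc20* from 14.5 to 21.0 CPM and from 17.0 to 36.1 CPM. The members' median was 0.28 without CDmetf F1 or HFDmetf M3 and 0.08 without HFDmetf M1, and 0.03 with the crypt score as a covariate. The 4 contrasts share groups, so their values are not independent of each other.

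The diet by metformin interaction, the test of whether the effect of metformin differs between the diets, gave 0 of 38 members at an FDR under 0.05, as did 0% of all genes. It gave 0 members at an unadjusted p under 0.05, against 6.03% of all genes. The interaction logFC was above 0 in 37 members, against 54% of all genes, with a median of 0.21, against 0.03 for all genes. The smallest p belonged to *Tk1* (logFC = 0.43; SE = 0.221; FDR = 0.799), *Foxm1* (logFC = 0.54; SE = 0.316; FDR = 0.799) and *Kif23* (logFC = 0.33; SE = 0.238; FDR = 0.806). The members' median was 0.06 without HFD M3, 0.08 without CD M3 and 0.06 without CD M3 and HFDmetf F2, stood at 0.10 without CD F3, HFDmetf M1 or HFDmetf M2 and at 0.13 without CDmetf F2, and was 0.34 without HFD F3. With the crypt score as a covariate it was −0.19, with 9 members above 0 and 2 at an unadjusted p under 0.05, against 6.4% of all genes.

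Between the sexes (male vs. female, by label), 0 of 38 members reached an FDR under 0.05, against 0.0071% of all genes, and 0 had an unadjusted p under 0.05, against 7.27% of all genes. A positive logFC, higher in males, was found in 18 members, against 53.8% of all genes, with a median of −0.01. Of the 16 S genes, 14 had a negative logFC (median −0.14), against 46.2% of all genes, and of the 22 G2 and M genes 16 had a positive one (median 0.05), a split noticed after the values were seen and not tested. Its G2 and M side was lost without CD M3, where 7 of the 22 G2 and M genes were above 0 (median −0.05). That side was not seen with the crypt score as a covariate, where 10 were (median −0.02). It was also lost without CD F2 (11 above 0, median −0.01) and with no filter on low counts (10 above 0, median −0.0055). In each of these fits 15 of the 16 S genes stayed below 0. The smallest p belonged to *Rrm2* (logFC = −0.35; SE = 0.189; FDR = 0.685), *Pcna* (logFC = −0.20; SE = 0.130; FDR = 0.709) and *Cenpe* (logFC = 0.23; SE = 0.163; FDR = 0.731). *Cenpe* was highest in CD M3, at 57.2 CPM, against a median of 31.98 CPM over all libraries. With both sex-mismatched HFD libraries left out, the median logFC of the members was −0.03, and 17 were above 0. Without CD M3 it was −0.11, and with the crypt score as a covariate −0.09, with 11 members above 0 and 6 at an unadjusted p under 0.05, against 8.92% of all genes.

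A further 90 genes of the cycle were taken as a second list, of which 88 passed the filter, not among them *Fen1* and *Cdkn2a*. In HFDmetf vs. HFD, 0 of the 88 reached an FDR under 0.05, 76 had a positive logFC (median 0.24) and 3 an unadjusted p under 0.05, all higher, a smaller share than the 6.61% of all genes: *Lig1*, the ligase of the lagging strand (logFC = 0.58; SE = 0.222; FDR = 0.640), the helicase component gene *Cdc45* (logFC = 0.57; SE = 0.238; FDR = 0.640) and the origin recognition gene *Orc6* (logFC = 0.40; SE = 0.183; FDR = 0.640). Of the 40 genes in the mitosis list 38 and of the 22 replication genes 20 had a positive logFC (medians 0.25 and 0.28), against 53.9% of all genes. The mitosis list also holds the E2F transcription factor genes *E2f2*, *E2f7* and *E2f8*. Of the 6 Cdk inhibitor genes, which brake the cycle, 4 were above 0 (median 0.04). In HFDmetf vs. CDmetf, 0 of 88 reached an FDR under 0.05 and 7 an unadjusted p under 0.05 (against 7.87% of all genes), all higher, the smallest being those of *Orc6* (logFC = 0.58; SE = 0.183; FDR = 0.582), the helicase component gene *Gins1* (logFC = 0.84; SE = 0.279; FDR = 0.582) and the kinetochore gene *Spc25* (logFC = 0.39; SE = 0.145; FDR = 0.599). In CDmetf vs. CD, 0 of 88 reached an FDR under 0.05 and 3 an unadjusted p under 0.05, against 5.14% of all genes: the condensin gene *Ncapg* (logFC = 0.57; SE = 0.179; FDR = 0.940), the cyclin D3 gene *Ccnd3* (logFC = 0.30; SE = 0.134; FDR = 0.940) and the securin gene *Pttg1* (logFC = 0.31; SE = 0.147; FDR = 0.940).

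In HFD vs. CD, 0 of the 88 genes had an FDR or an unadjusted p under 0.05. The smallest p there belonged to the Cdk inhibitor gene *Cdkn1c* (logFC = −0.59; SE = 0.327; FDR = 0.9997), the G1 kinase gene *Cdk6* (logFC = −0.35; SE = 0.212; FDR = 0.9997) and *Pttg1* (logFC = 0.24; SE = 0.149; FDR = 0.9997), and all 6 Cdk inhibitor genes had a negative logFC (median −0.14). In the interaction, 2 of 88 had an unadjusted p under 0.05 (against 6.03% of all genes) and 0 an FDR under 0.05: *Gins1* (logFC = 0.90; SE = 0.388; FDR = 0.799) and *Pttg1* (logFC = −0.47; SE = 0.211; FDR = 0.799), followed by the cyclin D2 gene *Ccnd2* (logFC = 0.51; SE = 0.271; FDR = 0.799). Between the sexes, 2 of 88 had an unadjusted p under 0.05 (against 7.27% of all genes) and 0 an FDR under 0.05: the phosphatase gene *Cdc25a*, which activates Cdks (logFC = −0.29; SE = 0.103; FDR = 0.570), and *Fzr1*, an activator of the anaphase promoting complex (logFC = 0.19; SE = 0.0748; FDR = 0.620). The primase gene *Prim1* came next (logFC = −0.32; SE = 0.159; FDR = 0.682). Over the libraries, the scores of the replication, mitosis and G1 regulator lists ran with the cell cycle score (r 0.924, 0.960 and 0.883), and that of the Cdk inhibitor list did not (r 0.111). Among these inhibitors *Cdkn1a*, encoding p21, had an r of −0.640 with the cell cycle score, at 81.9 to 242.0 CPM.

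Several members share exon bases with other genes, and their counts are uncertain to that extent because the strand used for counting is not given. The largest overlaps on the opposite strand were those of *Kif20a* with *Cdc23* (1271 of 4338 exon bases), *Ccne2* with *Ints8* (609 of 3495), *Ube2c* with *Tnnc2* (592 of 2600), *Ccna2* with *Exosc9* (510 of 4083) and *Mcm7* with *Cops6* and *Ap4m1* (385 of 4426). On the same strand *Mcm7* holds the microRNA genes *Mir25* and *Mir93* (172 bases), and *Foxm1* shares 241 bases with *Tex52* and *Gm44596*.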

How the data were processed

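Bulk RNA-seq of ileum was analysed in 24 libraries, 1 per animal. Per the study's methods, total RNA from tissue kept in RNAlater was depleted of rRNA and made into libraries with a directional kit. The authors trimmed reads with Trimmomatic 0.39 and aligned them with STAR 2.5.3a to GRCm38, and they deposited raw counts per gene. The annotation release and the counting strand are not given in the sources used here.

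Symbols were matched to 55450 of 55536 gene IDs. Coordinates and exon lengths were taken from GENCODE M21, and promoters from RefSeq GRCm38.p6. Genes were filtered with filterByExpr, and TMM-normalized counts were fitted with edgeR 4.0.16 (quasi-likelihood test) on all 24 libraries with terms for group, sex and replicate number (17 residual degrees of freedom). The study adjusted for sex and sequencing block, and whether the replicate numbers are those blocks is not stated. Benjamini-Hochberg FDR under 0.05 was the threshold, over 14076 genes. SE is the absolute logFC divided by the square root of F. For each score, log2 CPM (with a prior count of 1) was turned into z-scores per gene and averaged over the list. The fit was also run on simulated counts, with changes larger than the fitted logFC of any member. That run does not show how well changes of the members' size would be found. Alternatives included limma-voom 3.58.1, DESeq2 1.42.0, other filters and scalings, score covariates and leaving out each library.

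The members and lists were chosen with earlier results of these data known. In each contrast the genes named are the 3 members, and the 3 other cell cycle genes, with the smallest p. Also named are *Mki67*, *Top2a*, *Pcna* and the 10 genes most like the cell cycle score. Replicates are separate animals.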

Additional observations from a re-analysis of the deposited data

Results flagged for a closer look

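Values that stood far from the rest of their group of 6 were found in 9 of 164 sets tested, and they came from 5 libraries. The rule was Dixon's, the gap to the nearest value as a share of the group's range, which was 0.63 to 0.737 in the 9 sets. Over so many sets some flags arise without any unusual library. How many was not worked out, so the number of flags is not read as an excess. The sets are not independent of each other, since the members varied together across the same libraries. In CD M3, *Mki67* was at 459.3 CPM (next 235.0 CPM), *Kif23* at 63.56 CPM (next 39.72 CPM) and *Bub1b* at 34.5 CPM (next 19.94 CPM), and this is the library in which 10 genes took 85.4% of the reads. In HFD F3, *Pcna* was at 68.62 CPM (next 43.26 CPM) and *Rrm1* at 69.84 CPM (next 42.79 CPM). In CDmetf M2, *Rrm2* was at 24.05 CPM (next 15.03 CPM), and in CDmetf F1 *Tk1* was at 33.32 CPM (next 23.36 CPM). In HFDmetf M3 the values were low: *Rrm2* was at 6.198 CPM (next 15.98 CPM), and the S phase score was −1.0042 (next 0.4445). The crypt score of that library was −1.0026, the lowest of the HFDmetf group. The causes were not tested.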

How the results depend on the processing

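The number of members at an FDR under 0.05 was 0 in all 219 combinations of a comparison with 1 of 37 alternative settings. With 1 library left out, members at an unadjusted p under 0.05 numbered 0 to 1 in HFD vs. CD (1 without CD M1) and CDmetf vs. CD (1 without CD M3), and 0 to 2 in the interaction and between the sexes. The shares of all genes in these fits are not given here, so these counts are not read as particular to the members. Over all genes, DESeq2 called 13 in HFD vs. CD, 3 in HFDmetf vs. CDmetf, 4 in CDmetf vs. CD, 4 in the interaction and 19 between the sexes, against 0, 0, 0, 0 and 1 in edgeR. Genes called between the sexes numbered 15 with no filter on low counts, 10 with the crypt score as a covariate, 8 without HFD M2 and HFD F2, and 0 without CD M3 and HFDmetf F2. With 1 library left out they numbered 1 to 8, and in HFD vs. CD 0 to 1. With the crypt score as a covariate the members' median logFC was 0.0142 in HFDmetf vs. HFD and −0.1853 in the interaction, the latter against 0.2058, so that its sign turned. The logFC of *Foxm1* in HFD vs. CD, −0.2770, was 0.0184 with that covariate and −0.4114 to 0.0068 with 1 library left out, the highest without CD M3. The causes were not tested. With 1 library left out, the members' median logFC was −0.1652 to 0.1133 in HFD vs. CD, 0.0838 to 0.2828 in HFDmetf vs. CDmetf, 0.1877 to 0.4459 in HFDmetf vs. HFD, 0.0152 to 0.2467 in CDmetf vs. CD, 0.0584 to 0.3427 in the interaction and −0.1098 to 0.0436 between the sexes.

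Whether replicate numbers stand for the study's blocks is not stated. Deviations from the group means had a mean r of 0.130 between libraries of the same number in different groups (72 pairs) and −0.064 between different numbers (144 pairs), 23 of 36 pairs of the same sex and number were above 0.1 and the lowest was −0.437, and 14 of 24 libraries correlated best with their own number. The mean r between different numbers adds no separate evidence, because deviations from a group mean cancel within the group. These values do not settle whether the numbers pair the libraries. Without the replicate block the members' median logFC was −0.0184 in HFD vs. CD, 0.1705 in HFDmetf vs. CDmetf, 0.3258 in HFDmetf vs. HFD, 0.1020 in CDmetf vs. CD, 0.2068 in the interaction and −0.0212 between the sexes, with 0 members called. The depth limits *Ccne1*, *E2f1* and *Cdc6* most, at 2, 7 and 8 reads in their lowest libraries.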
